A study of Mus musculus with 8 samples.

Results

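Smooth muscle cells and pericytes wrap the airways and blood vessels of the lung, and 8 genes grouped under their name, of which *Pdgfra* mainly marks fibroblasts, are described here in mice given lipopolysaccharide (LPS) with or without the inhibitor YW3-56. The 8 genes, *Acta2*, *Myh11*, *Tagln*, *Cnn1*, *Des*, *Pdgfrb*, *Pdgfra* and *Cspg4*, were listed by symbol and found in the count files, where 54749 gene identifiers matched the GENCODE M39 annotation and 667 did not. All 8 were matched, and all 8 are among the 18560 genes that passed the filter on low counts. The lungs came from female C57BL/6J mice aged 6 to 8 weeks, and RNA was taken from whole lung tissue of a single side. The Control group (3 mice, numbered 1, 2 and 4) received dimethyl sulfoxide (DMSO) in the tail vein and later saline in the peritoneal cavity. The LPS group (3 mice, numbered 1, 6 and 7) received LPS, a component of the outer membrane of bacteria that causes endotoxin shock, at 35 mg/kg into the peritoneal cavity. The dual-treatment group, given LPS and YW3-56 (2 mice, numbered 2 and 5), received YW3-56, an inhibitor of protein arginine deiminases, at 10 mg/kg in DMSO 30 min before the same dose of LPS. Lungs were taken about 24 h after LPS. The study describes the LPS group as given LPS alone, while both other groups received DMSO, so in comparisons with the LPS group an effect of DMSO cannot be told apart. Total counts per library lay between 19061949 and 20908608, so depth differed little between the mice. Values are CPM, counts set to a common library total, scaled by edgeR's TMM method, in which a factor per library corrects for differences in composition.

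The contractile state of smooth muscle rests on smooth muscle actin and smooth muscle myosin, which form the filaments that shorten the cell, and on calponin and transgelin, which bind to actin. These genes share a control: serum response factor binds a DNA element named the CArG box, and myocardin and its relatives act with it. Pericytes sit on capillaries, carry the receptor for platelet-derived growth factor B (PDGF-B) and the proteoglycan NG2, and are recruited by PDGF-B from the endothelium, while the related receptor PDGF receptor alpha marks fibroblasts of the lung. In whole lung tissue, fewer cells of a type and less RNA per cell cannot be told apart, which holds for each of the differences below.

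Some libraries stood apart in genes of other tissues. Of 17 skeletal muscle genes, whose summed level was 37.1, 111 and 58.0 CPM in the control mice and 27.4 and 29.9 CPM in the dual-treated mice, the sum was 70.5, 685 and 1670 CPM in LPS mice 1, 6 and 7. The most abundant gene of this list was *Acta1*, the actin of skeletal muscle, at 0, 0.329 and 0.690 CPM in control, 0.534, 209.6 and 600.2 CPM in the LPS group and 0.182 and 0.0878 CPM in the dual-treatment group. LPS mice 6 and 7 were thus high in *Acta1*, and LPS mouse 1 was within the range of the control mice. The 13 matched genes of squamous epithelium, of 14 listed, separated the same mice, with 75.0, 64.6 and 68.9 CPM in control, 75.4, 937 and 2378 CPM in the LPS group and 106 and 146 CPM in the dual-treatment group. The most abundant of them was *Krt13*, a keratin of moist squamous lining, at 0.297, 286 and 887 CPM in the LPS group. In the control group *Krt16*, *Krtdap*, *Sprr1b*, *Sprr3* and *Crct1* of the squamous list, and *Myh2* and *Pvalb* of the skeletal list, had no count in any library, and in the dual-treatment group *Krt6b*, *Crct1* and *Calm4* of the squamous list had none. *Tnnc2*, the troponin C of fast skeletal muscle, had no count in any LPS library, also not in LPS mice 6 and 7. Of its 897 exon bases, 616 (68.7%) are shared with *Ube2c* on the opposite strand, so its counts depend on a strand setting that is not given in the sources used here.

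Cardiac muscle genes followed another order. The 10 listed genes, which in mice are also expressed in the muscle sleeves of the pulmonary veins, summed to 465, 1238 and 715 CPM in the control mice, 653, 1030 and 674 CPM in the LPS mice and 264 and 259 CPM in the dual-treated mice. Control mouse 2 was highest and both dual-treated mice were lowest, and none of the 10 genes was at 0 in any library. *Myh6*, the main myosin heavy chain of the mouse heart and the most abundant gene of the list, was at 135, 489 and 257 CPM in control, 156, 271 and 159 CPM in the LPS group and 109 and 100.1 CPM in the dual-treatment group. Desmin is made in all muscle types, so the results below are also given without LPS mice 6 and 7. This leaves a single LPS mouse that is assumed to vary like the other groups. Dual treatment against control does not use these mice, so there only the filter, the scaling and the shared estimate of spread can change. The amount of neighbouring muscle in each lung sample was not measured.

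**Figure D1:**
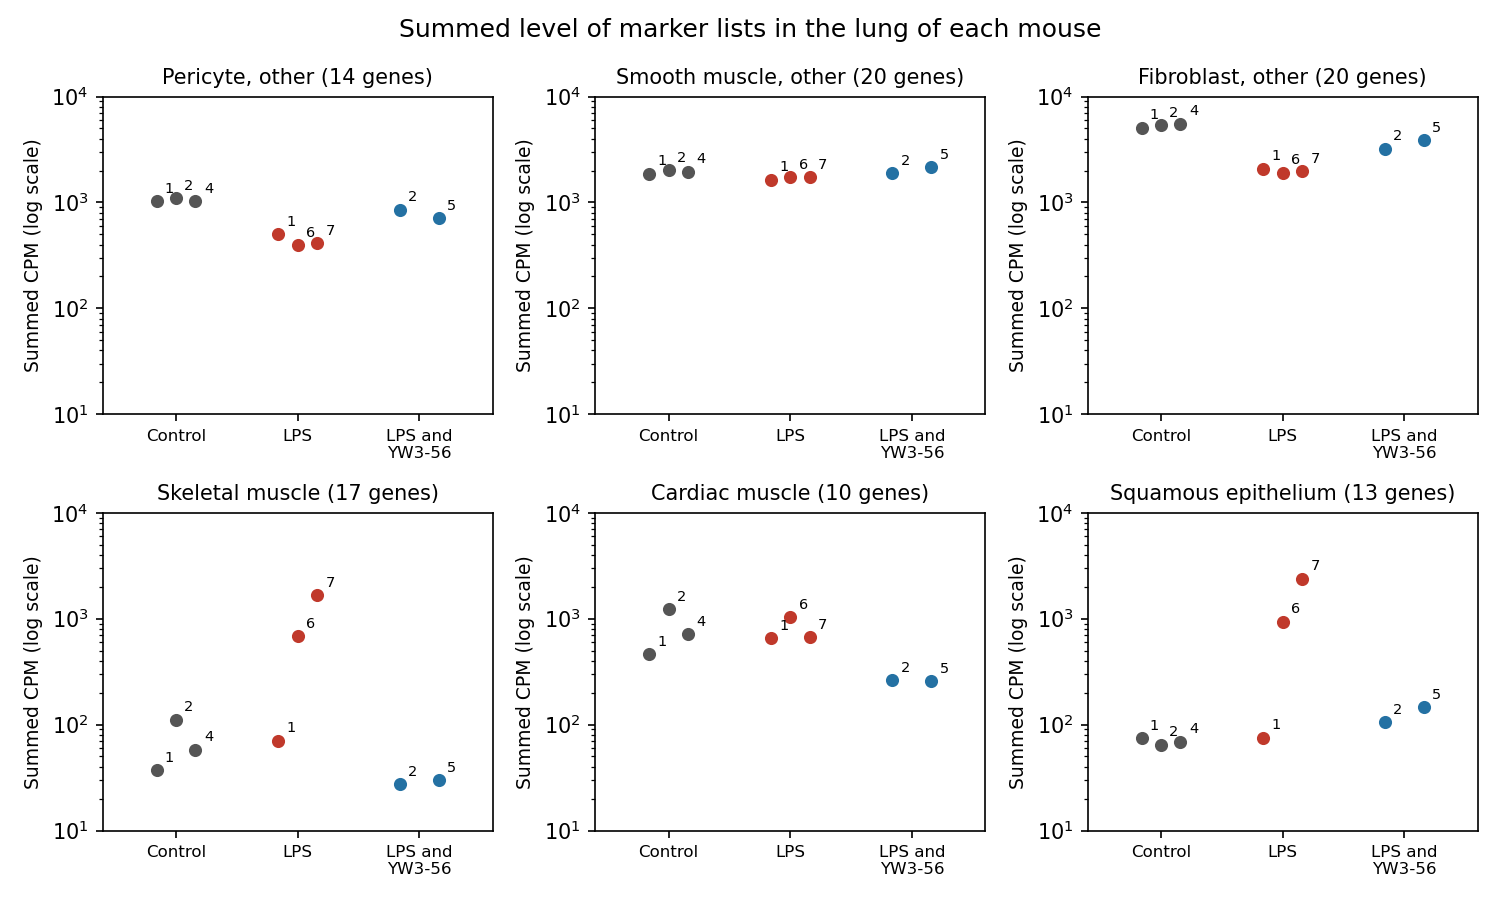
Summed CPM (log scale) of 6 marker lists in the lung of each mouse, by group, with the number of the mouse beside its point. LPS mice 6 and 7 lie at 685 and 1670 CPM for skeletal muscle, while the other 6 mice lie at 111 CPM or less, and the 3 LPS mice are lowest for the pericyte and fibroblast lists.

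Levels of the 8 genes were compared with each other per kilobase of annotated exon, since longer transcripts give more reads. In the Control group *Pdgfra* (31.5 ± 0.652 CPM per kilobase, SD, n = 3), *Acta2* (26.9 ± 4.31) and *Des* (24.9 ± 2.06) were highest, and neighbours among these 3 differed by less than the sum of their SDs. *Pdgfrb* followed at 17.7 ± 2.32 CPM per kilobase, then *Myh11* at 10.9 ± 1.24 and *Cnn1* at 9.89 ± 2.02, which again did not differ beyond their spread. *Cspg4* was at 1.12 ± 0.212 and *Tagln* at 0.555 ± 0.0871 CPM per kilobase. With LPS, *Acta2* stood alone at the top at 41.6 ± 3.50 CPM per kilobase (SD, n = 3), above *Des* at 25.2 ± 10.2 and *Pdgfra* at 25.0 ± 4.37, and *Cspg4* was last at 0.390 ± 0.0976, though its distance from *Tagln* was less than the sum of their SDs. In the dual-treatment group *Pdgfra* (24.7 ± 7.57 CPM per kilobase, SD, n = 2), *Acta2* (21.5 ± 3.54), *Pdgfrb* (17.1 ± 3.31) and *Des* (15.7 ± 3.39) formed a run of neighbours within their spread, and *Cnn1* was at 2.17 ± 0.295.

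The very low level of *Tagln*, which is commonly an abundant transcript of smooth muscle, needs its gene model beside it. In the GENCODE M39 annotation of GRCm39, 1364 of the 2044 exon bases of *Tagln* (66.7%) are also exon of *Gm48529* or *Pcsk7* on the opposite strand. For *Cnn1*, 961 of 2736 exon bases (35.1%) are shared with *Elof1*, and for *Acta2* 301 of 3227 (9.3%) with *Stambpl1*. The strand setting of the authors' counting is not given in the sources used here, so values of *Tagln* and *Cnn1* are uncertain. *Myh11*, *Pdgfrb* and *Cspg4* share no exon base with another gene, and *Des* and *Pdgfra* share 5.6% and 5.7%. No stretch of 150 bases in the longest transcript of any of the 8 genes occurs in a transcript of another gene.

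In GRCm39 the genes lie at chr19:34217737-34232990 (*Acta2*, minus strand), chr16:14012399-14109236 (*Myh11*, minus), chr9:45840909-45847404 (*Tagln*, minus), chr9:22010512-22020926 (*Cnn1*, plus), chr1:75320511-75345223 (*Des*, plus), chr18:61178212-61218133 (*Pdgfrb*, plus), chr5:75311994-75358876 (*Pdgfra*, plus) and chr9:56772317-56807187 (*Cspg4*, plus). Their identifiers in the files are, in the same order, ENSMUSG00000035783, ENSMUSG00000018830, ENSMUSG00000032085, ENSMUSG00000001349, ENSMUSG00000026208, ENSMUSG00000024620, ENSMUSG00000029231 and ENSMUSG00000032911. *Tagln*, *Cnn1* and *Cspg4* thus share chromosome 9.

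The first comparison asks what endotoxin shock does to these genes. With LPS, *Acta2* rose 1.54-fold, while *Pdgfrb* was 1.60-fold lower and *Cspg4* 2.87-fold lower than in control, so the smooth muscle actin and the pericyte genes moved in opposite directions. A gene is called here at an adjusted p under 0.05 by the quasi-likelihood test of edgeR, adjusted over the 18560 tested genes by the Benjamini-Hochberg method. By that rule 1 of the 8 genes was higher and 2 were lower in the LPS group, against 32.6% and 33.9% of all tested genes, so the share of called genes among the 8 was no larger than in the whole table. The median log2 fold change (log2FC) was -0.02 for the 8 genes and -0.01 for all tested genes, and -0.48 against -0.08 without LPS mice 6 and 7.

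The other comparisons concern YW3-56. Against control, the dual-treatment group differed in *Cnn1* alone among the 8 genes, which was 4.56-fold lower. No gene of the 8 was higher and 1 was lower, against 9.13% and 7.02% of all tested genes. The total of 2997 called genes fell to 1220 without dual-treated mouse 2. DESeq2 gave 0 higher and 2 lower, where it called 1845 higher and 1855 lower of 32006 genes with a count. By edgeR's unadjusted p under 0.05 there were 0 higher and 4 lower, for which the share of all tested genes is not given here. Against the LPS group, *Acta2*, *Myh11*, *Tagln* and *Cnn1* were lower and *Pdgfrb* and *Cspg4* were higher in the dual-treated mice. These 2 of 8 higher and 4 of 8 lower stand beside 31.7% and 27.4% of all tested genes. The shares of all tested genes given for each comparison also stand beside the main counts of the other gene lists below. Counts by the unadjusted p or in another edgeR fit have no such share beside them, so no result about a list is read from them. DESeq2 counts stand beside 6305 higher and 6155 lower of 32006 genes for LPS against control. For dual treatment against LPS these were 5496 and 5344. The median log2FC of the 8 genes was -0.45 against control and -0.58 against LPS, where all tested genes had medians of 0.00 and 0.06. The latter median of the 8 genes was -0.07 without LPS mice 6 and 7, beside 0.13 for all tested genes, so most of that shift was absent there. Both YW3-56 comparisons use the same 2 mice, and both LPS comparisons the same 3, so they are not independent of each other.

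Scaling moves these numbers as a whole. The TMM factors were 1.06 to 1.08 in the control mice, 0.810 to 0.930 in the LPS mice and 1.09 to 1.11 in the dual-treated mice. With library size alone the median log2FC of all tested genes shifted by -0.28 for LPS against control, by 0.04 for dual treatment against control and by 0.32 for dual treatment against LPS. Of all called genes, the share that was higher then went from 49% to 35.6%, from 56.6% to 63.8% and from 53.6% to 71% in these comparisons.

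**Figure D2:**
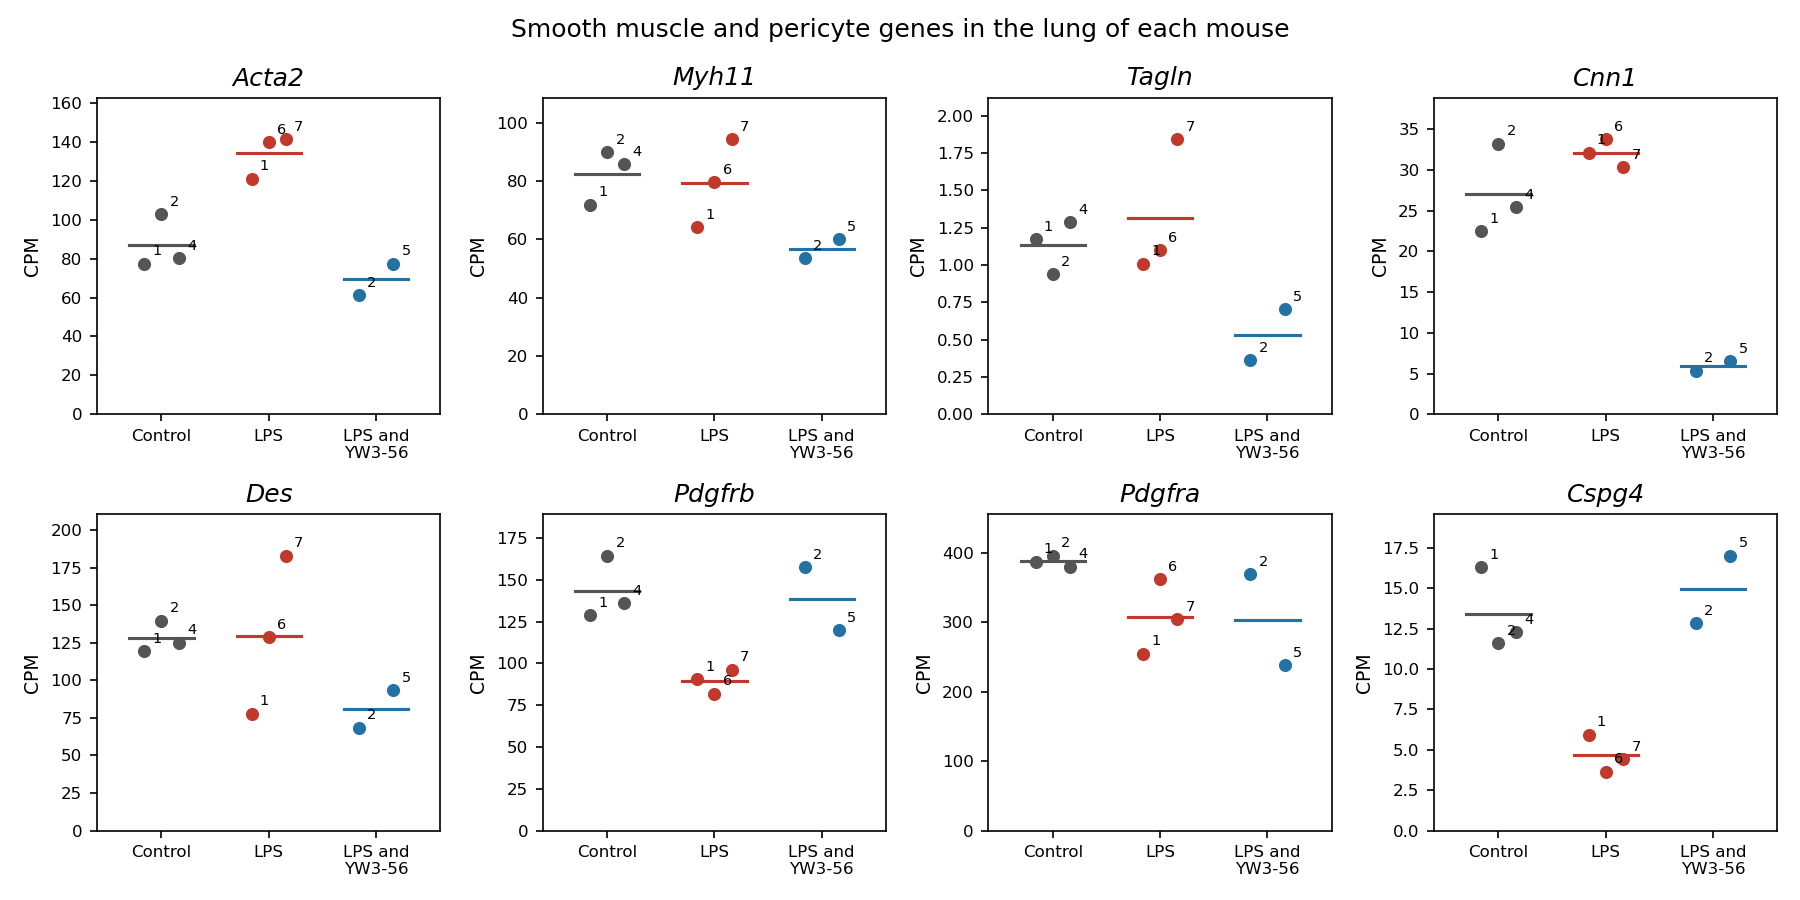
CPM of the 8 genes in each mouse, 1 panel per gene, with a linear axis from 0; points are mice with their numbers and horizontal lines are group means. All 3 LPS mice are above all 3 control mice for *Acta2* and below them for *Pdgfrb* and *Cspg4*, and both dual-treated mice are the lowest of the 8 for *Cnn1*.

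*Acta2*, which encodes the alpha actin of smooth muscle, was at 77.5, 103 and 80.4 CPM in control mice 1, 2 and 4, at 121, 139.8 and 141 CPM in LPS mice 1, 6 and 7, and at 61.4 and 77.5 CPM in dual-treated mice 2 and 5. Every LPS mouse lay above every mouse of the other groups, and the dual-treated mice overlapped the lower end of the control range. The group means were 86.9 ± 13.9 (SD, n = 3), 134 ± 11.3 (n = 3) and 69.5 ± 11.4 CPM (n = 2). In edgeR's quasi-likelihood test the LPS group was above control by log2FC 0.63 (SE 0.14, adjusted p = 0.00291), and the dual-treatment group was below the LPS group by log2FC -0.95 (SE 0.16, adjusted p = 0.000741). Dual treatment against control gave log2FC -0.32 (SE 0.16, adjusted p = 0.195), which was not called. The rise with LPS was 0.34 with library size alone, where the median gene was at -0.29, and was no longer called (edgeR adjusted p = 0.0718). It was 0.48 without LPS mice 6 and 7 (edgeR adjusted p = 0.0628), and over 14 alternatives the adjusted p of edgeR or DESeq2 ran from 6.59e-05 to 0.0718. The rise was also not called in edgeR's test against a fold change of 1.5 (adjusted p = 0.306).

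*Myh11*, the myosin heavy chain of smooth muscle, did not share the rise of *Acta2*. It was at 71.8, 89.8 and 85.8 CPM in the control mice, 64.1, 79.5 and 94.3 CPM in the LPS mice and 53.5 and 60.0 CPM in the dual-treated mice. Control and LPS mice overlapped, and both dual-treated mice were below the other 6. For LPS against control edgeR gave log2FC -0.06 (SE 0.15, adjusted p = 0.746), and for dual treatment against control log2FC -0.54 (SE 0.17, adjusted p = 0.0536). Against the LPS group the dual-treated mice were lower, with log2FC -0.48 (SE 0.17, adjusted p = 0.0297) in edgeR. The log2FC of this last comparison was smaller with library size alone, at -0.17 (edgeR adjusted p = 0.469), and without LPS mice 6 and 7, at -0.18 (edgeR adjusted p = 0.365). Without 1 of 4 mice the call was also lost while the log2FC stayed closer to its size, at -0.49 without LPS mouse 6, -0.35 without LPS mouse 7, -0.43 without dual-treated mouse 2 and -0.59 without dual-treated mouse 5 (adjusted p from 0.0546 to 0.131 in edgeR). It was called in 5 of 13 alternatives, with edgeR or DESeq2 adjusted p from 0.00539 to 0.469. The difference between dual treatment and control was called in 6 of 13, from 0.0113 to 0.254 in edgeR or DESeq2.

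*Cnn1* encodes calponin, which binds actin and slows the myosin of smooth muscle. Its values were 22.5, 33.2 and 25.5 CPM in control, 32.2, 33.8 and 30.4 CPM in the LPS group and 5.35 and 6.50 CPM in the dual-treatment group, from counts of 460, 708 and 554, 542, 585 and 544, and 118 and 148. Both dual-treated mice were far below the other 6, and the LPS mice lay in and just above the upper part of the control range. By edgeR the dual-treated group was below control by log2FC -2.19 (SE 0.19, adjusted p = 0.000141) and below the LPS group by log2FC -2.44 (SE 0.19, adjusted p = 1.19e-05), a 5.41-fold difference, and both were called in each of 13 alternatives with adjusted p up to 0.00146 and 0.000265. LPS against control gave log2FC 0.25 (SE 0.15, adjusted p = 0.178), which was called only without control mouse 2 (log2FC 0.42, edgeR adjusted p = 0.0325; 0.0325 to 0.832 over 14 alternatives). *Elof1*, which shares exon with *Cnn1* on the other strand, was at 66.4, 73.1 and 70.1 CPM in control, 122, 135 and 128 CPM in LPS and 77.6 and 65.3 CPM in dual treatment. It was higher in the LPS mice than in all others, and the dual-treated mice lay around the control range: by edgeR it was called lower in dual treatment than in LPS (log2FC -0.85, SE 0.11, adjusted p = 0.000176) and not called against control (log2FC 0.03, SE 0.11, adjusted p = 0.877).

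The cardiac list was lowest in the same mice as *Cnn1*. In the dual-treatment group 8 of its 10 genes were below control and 8 below the LPS group in edgeR, with median log2FC of -1.70 and -2.07, against 0.00 and 0.06 for all tested genes. Its called genes ran from *Tnnt2*, a troponin (-1.18), to *Actc1*, the cardiac actin (-2.75), against control, and from *Tnnt2* (-1.12) to *Myl3*, a myosin light chain (-5.72, and -2.49 without LPS mice 6 and 7), against LPS. Without LPS mice 6 and 7 the medians were -1.70 and -2.01, beside 0.01 and 0.13 for all tested genes. None of the 10 was called higher in either comparison by edgeR or by DESeq2, and none had a higher level at an unadjusted edgeR p under 0.05. The part of cardiac muscle in the low *Cnn1* values was not tested. With LPS 2 of the 10 were higher and 1 lower in edgeR, from *Myl3* (log2FC 3.14, -0.09 without LPS mice 6 and 7) to *Actc1* (-1.87), with a median of 0.44, and *Myh6* was not called (log2FC -0.59, SE 0.40, adjusted p = 0.212). Once LPS mice 6 and 7 were left out, the median with LPS was 0.23, beside -0.08 for all tested genes. The log2FC of *Actc1* was then still -1.79, and that of *Tnnt2* for dual treatment against LPS was -0.83 and no longer called.

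*Tagln*, which encodes transgelin, had few counts, with 24, 20 and 28 in control, 17, 19 and 33 with LPS and 8 and 16 with dual treatment. These are 1.17, 0.939 and 1.29 CPM, 1.01, 1.10 and 1.84 CPM and 0.363 and 0.702 CPM. Both dual-treated mice were lowest, control and LPS mice overlapped, and counts this small leave wide errors. Its edgeR log2FC was 0.22 (SE 0.40, adjusted p = 0.651) for LPS against control, -1.08 (SE 0.48, adjusted p = 0.163) for dual treatment against control and -1.29 (SE 0.48, adjusted p = 0.0415) for dual treatment against LPS. The last was called in 4 of 12 alternatives, with edgeR and DESeq2 adjusted p from 0.0356 to 0.252, and was lost without LPS mouse 7 (log2FC -0.98), without dual-treated mouse 2 (-0.93) and without LPS mice 6 and 7 (-0.92). This *Tagln* call was also lost where the log2FC stayed close to its size, at -1.35 with DESeq2 and -1.22 with upper quartile scaling. The same held at -1.27 without the filter on low counts and -1.31 with only the 2 groups compared (adjusted p from 0.0528 to 0.075 in edgeR or DESeq2). *Pcsk7*, on the opposite strand, was at 62.8, 66.6 and 68.4 CPM in control, 47.5, 41.8 and 50.2 CPM in LPS and 62.6 and 68.1 CPM in dual treatment, and *Gm48529* had 18, 23 and 27, 43, 45 and 37, and 19 and 29 counts.

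*Des* encodes desmin, the intermediate filament of smooth, skeletal and cardiac muscle and of many pericytes. It was at 119, 139.8 and 125 CPM in control, 77.7, 129 and 183 CPM in LPS mice 1, 6 and 7, and 68.5 and 93.2 CPM in the dual-treated mice. LPS mice spanned both sides of the control range, LPS mouse 1 was below all control mice, and LPS mouse 7, which had the highest skeletal muscle sum, had the highest *Des*. No comparison was called in the main fit of edgeR: LPS against control gave log2FC 0.02 (SE 0.26, adjusted p = 0.948), dual treatment against control log2FC -0.66 (SE 0.30, adjusted p = 0.163), and dual treatment against LPS log2FC -0.68 (SE 0.30, adjusted p = 0.0711). The last was called with DESeq2 (log2FC -0.73, adjusted p = 0.0201) and in edgeR without the filter on low counts (-0.66, adjusted p = 0.0081). Against control, edgeR called dual treatment without that filter (-0.66, adjusted p = 0.0228) and with only the 2 groups compared (-0.65, adjusted p = 0.0196). Without LPS mice 6 and 7, the remaining LPS mouse was below control by log2FC -0.71 (edgeR adjusted p = 0.0147; 0.0147 to 1 over 14 alternatives). Dual treatment against control, which does not use LPS mice 6 and 7, stayed at -0.66 in that fit. Over 13 alternatives the edgeR or DESeq2 adjusted p of this comparison ran from 0.0196 to 0.531. Dual treatment against LPS was at log2FC 0.05 without LPS mice 6 and 7 (edgeR adjusted p = 0.843), so the difference of -0.68 was absent there, and at -0.95 without LPS mouse 1 (edgeR adjusted p = 0.00316; 0.00316 to 0.843 over 13 alternatives).

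**Figure D3:**
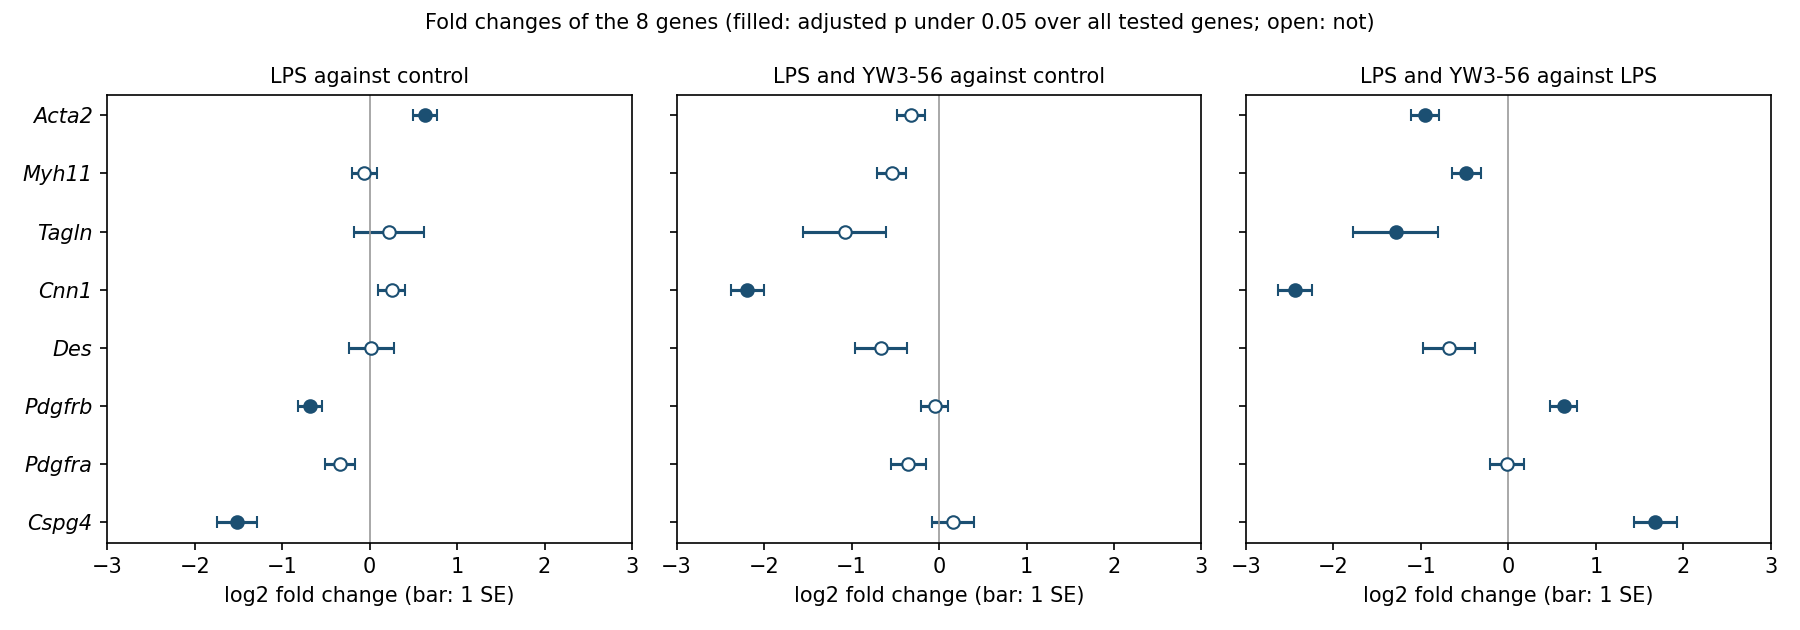
Log2 fold changes of the 8 genes in the 3 comparisons, from 1 edgeR fit of all 8 libraries; bars are 1 standard error, and filled points have an adjusted p under 0.05 over all tested genes. The genes called in both the left and the right panel, *Acta2*, *Pdgfrb* and *Cspg4*, change side between them. They are at 0.63, -0.68 and -1.52 for LPS against control and -0.95, 0.63 and 1.68 for dual treatment against LPS. Both panels use the same 3 LPS mice, so they are not independent of each other.

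*Pdgfrb*, the receptor on pericytes and smooth muscle cells through which PDGF-B recruits them, was at 129, 165 and 136 CPM in control, 90.7, 81.9 and 96.3 CPM in the LPS group and 158 and 119.8 CPM in the dual-treatment group. All 3 LPS mice were below the other 5, and dual-treated mice 2 and 5 lay within and just below the control range. Group means were 143 ± 18.8, 89.6 ± 7.26 and 139 ± 26.8 CPM (SD, n = 3, 3 and 2). The edgeR test gave log2FC -0.68 (SE 0.14, adjusted p = 0.0017) for LPS against control and log2FC 0.63 (SE 0.15, adjusted p = 0.00544) for dual treatment against LPS, while dual treatment against control was at log2FC -0.05 (SE 0.15, adjusted p = 0.876). The fall with LPS was called in each of 14 alternatives, with log2FC from -0.96 to -0.57, but not in edgeR's test against a fold change of 1.5 (adjusted p = 0.194). The difference between dual treatment and LPS was not called without dual-treated mouse 2 (log2FC 0.39, edgeR adjusted p = 0.0601; 0.000271 to 0.0601 over 13 alternatives), and neither was it in edgeR's test against a fold change of 1.5 (adjusted p = 0.331).

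*Cspg4* encodes NG2, the proteoglycan of pericytes and of immature smooth muscle. Its values were 16.3, 11.6 and 12.3 CPM in control, 5.93, 3.64 and 4.41 CPM with LPS and 12.8 and 17.0 CPM with dual treatment. The LPS mice were the 3 lowest, with no overlap, and the dual-treated mice lay in and just above the control range. LPS against control was log2FC -1.52 (SE 0.23, adjusted p = 0.000274) in edgeR, dual treatment against LPS log2FC 1.68 (SE 0.25, adjusted p = 0.000347) and dual treatment against control log2FC 0.16 (SE 0.24, adjusted p = 0.709). The former pair was called in each of 14 and 13 alternatives, with log2FC from -1.82 to -1.17 and from 1.33 to 2.01.

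*Pdgfra* encodes the receptor that marks fibroblasts and binds PDGF-A and PDGF-C. Its values were 387, 396 and 380.3 CPM in control, 255, 363 and 304 CPM in LPS and 369.9 and 238 CPM in dual treatment. All LPS and dual-treated mice were below the control mice, and these 2 groups overlapped widely. By edgeR, LPS against control was log2FC -0.34 (SE 0.18, adjusted p = 0.116), dual treatment against control log2FC -0.35 (SE 0.20, adjusted p = 0.267) and dual treatment against LPS log2FC -0.02 (SE 0.20, adjusted p = 0.950), none of them called. With library size alone, where all genes shifted as given above, *Pdgfra* was lower with LPS by -0.61 (edgeR adjusted p = 0.0171), and without the filter on low counts by -0.36 (0.0442); the range over 14 alternatives was 0.0171 to 0.320.

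Ratios of 2 genes within a library do not depend on the scaling between libraries. The log2 ratio of *Acta2* to *Pdgfrb* counts was -0.74, -0.68 and -0.76 in the control mice, 0.42, 0.77 and 0.55 in the LPS mice and -1.36 and -0.63 in the dual-treated mice. The LPS mice were all above the other mice, and control mice lay inside the range of the dual-treated ones. For *Cnn1* over *Acta2* the log2 ratios were -1.78, -1.63 and -1.66, -1.91, -2.05 and -2.22, and -3.51 and -3.57 in the same order of groups, with no overlap between any pair of groups. For *Myh11* over *Acta2* they were -0.11, -0.20 and 0.09, -0.92, -0.81 and -0.59, and -0.20 and -0.37, so that the LPS mice were lowest. A 2-sided exact permutation test gave p = 0.1, the smallest that 3 mice against 3 or 3 against 2 allow, for LPS against control in these 3 ratios (adjusted p = 0.191 over 21 tests), so none of the ratios could pass a threshold of 0.05.

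The log2 ratio of *Des* to *Acta2* was 0.62, 0.44 and 0.64 in control, -0.64, -0.12 and 0.37 in LPS mice 1, 6 and 7 and 0.16 and 0.27 in dual treatment. LPS mice spread over 1 unit while control and dual-treated mice each stayed close together, and the LPS value minus the control value was -0.70 with and -1.21 without LPS mice 6 and 7. The ratio of *Cspg4* to *Pdgfrb* was -2.98, -3.82 and -3.47 in control, -3.93, -4.48 and -4.44 with LPS and -3.62 and -2.81 with dual treatment. *Cspg4* thus was lower relative to *Pdgfrb* in the LPS mice than in all others, though LPS mouse 1 and control mouse 2 were close. *Pdgfra* over *Pdgfrb* was at 1.59, 1.27 and 1.48, 1.49, 2.15 and 1.66, and 1.23 and 0.99, with overlap of control and LPS, and *Tagln* over *Acta2* at -6.02, -6.74 and -5.94, -6.87, -6.96 and -6.24, and -7.32 and -6.74. Over the 21 tests the exact p ran from 0.1 to 0.6.

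Other genes of the contractile apparatus were mixed. Of 20 listed, 19 were tested, and with LPS 2 were higher and 10 lower in edgeR, against 32.6% and 33.9% of all tested genes. The median log2FC was -0.45 against -0.01 for all tested genes. In edgeR *Ppp1r12b*, a subunit of the phosphatase that relaxes smooth muscle, was highest among the called genes, at 82.6, 79.6 and 74.1 CPM in control, 217, 183 and 197 CPM in LPS and 70.8 and 67.2 CPM in dual treatment (log2FC 1.34, SE 0.10, adjusted p = 3.49e-06 for LPS against control). *Ppp1r14a*, an inhibitor of the same phosphatase, was lowest in edgeR, at 92.7, 84.1 and 88.0 CPM, 12.4, 11.0 and 9.21 CPM and 40.1 and 91.0 CPM (log2FC -3.02, SE 0.27, adjusted p = 1.07e-05). The phosphatase subunit was thus high and its inhibitor low in all 3 LPS mice, with no overlap with the other groups. The list summed to 1875, 2012 and 1953 CPM in control, 1637, 1739 and 1731 CPM in LPS and 1898 and 2163 CPM in dual treatment. Its most abundant gene was *Flna*, the actin cross-linker filamin A, which is also expressed outside muscle, at 548, 579.6 and 609.8 CPM, 577, 623 and 547 CPM and 959.7 and 1073 CPM in the same order, highest in the dual-treated mice. Without LPS mice 6 and 7 the median log2FC of the list with LPS was -0.50, beside -0.08 for all tested genes.

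In the dual-treatment group 1 gene of this list was higher and 3 were lower than control, with a median log2FC of -0.40. The ends were *Flna* (log2FC 0.81, SE 0.12, adjusted p = 0.00221) and *Actg2*, the gamma actin of smooth muscle (log2FC -1.31, SE 0.30, adjusted p = 0.017). *Actg2* was at 10.4, 15.0 and 11.3 CPM in control, 14.3, 15.2 and 16.5 CPM in LPS and 3.18 and 6.67 CPM in the dual-treated mice, which were the lowest 2, as for *Cnn1*. Against LPS, 8 genes were higher and 6 lower, from *Ppp1r14a* (2.59, adjusted p = 6.54e-05) to *Actg2* (-1.64, adjusted p = 0.00129), each with its edgeR adjusted p in brackets, and the median was -0.17, or 0.15 with library size alone, where the median of all genes was 0.38. These counts were 9 higher and 3 lower with library size alone. Without LPS mice 6 and 7 the median was -0.05, beside 0.13 for all tested genes. *Pcp4* had no count in the control and dual-treated mice and was not tested.

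Of the other actins, *Acta1* was described above with skeletal muscle. *Actc1* was at 46.6, 169 and 93.4 CPM in control, 29.6, 29.7 and 25.4 CPM in LPS and 10.5 and 20.2 CPM in dual treatment, with control mouse 2 far above the rest; edgeR gave log2FC -1.87 (SE 0.41, adjusted p = 0.00268) for LPS against control and log2FC -2.75 (SE 0.49, adjusted p = 0.00608) for dual treatment against control. The cytoplasmic actins, present in every cell, were *Actb* at 1600, 1466 and 1623, 2468, 1861 and 1548, and 2244 and 2342 CPM and *Actg1* at 797, 772 and 834, 1731, 1096 and 1019, and 999 and 1089 CPM. *Actg1* was called higher with LPS (log2FC 0.68, SE 0.19, adjusted p = 0.0105 in edgeR) and *Actb* was not (log2FC 0.33, SE 0.17, adjusted p = 0.115). In all, 2 of the 5 other actins were higher and 1 lower with LPS, and 0 were higher and 2 lower with dual treatment against control, where unadjusted edgeR p under 0.05 and DESeq2 each gave 1 higher. Against LPS, 0 were higher and 2 lower with dual treatment, with 0 higher by the unadjusted p and by DESeq2. With library size alone 1 was higher and 2 lower in both of these comparisons, as *Actb* became called against control (0.59) and against LPS (0.57, beside 0.23 with TMM). In the fit without LPS mice 6 and 7, the log2FC with LPS was 0.64 for *Acta1*, 0.66 for *Actb* and -1.79 for *Actc1*. For dual treatment against control it was 0.55 for *Actb* and 0.38 for *Actg1*. Against LPS, *Acta1* was then at -1.95 and *Actg1* at -0.74.

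Of 7 regulators of the contractile genes, 0 were higher and 2 lower with LPS in edgeR, against 32.6% and 33.9% of all tested genes. *Srf*, the factor that binds the CArG box, was at 56.2, 62.0 and 63.1 CPM in control, 85.3, 62.0 and 67.4 CPM in LPS and 51.2 and 64.8 CPM in dual treatment, with overlapping groups and no call (log2FC 0.24, SE 0.14, adjusted p = 0.143 for LPS against control in edgeR). *Myocd*, its partner myocardin, had low values that overlapped between the groups, at 0.636, 1.60 and 0.828, 0.712, 1.33 and 1.12, and 0.681 and 0.922 CPM. Of the 2 related coactivators, *Mrtfb* was lower with LPS at 80.7, 65.7 and 76.1 CPM in control against 33.5, 28.6 and 38.5 CPM (log2FC -1.15, SE 0.13, adjusted p = 4.11e-05), and *Mrtfa* was not called (log2FC -0.29, SE 0.13, adjusted p = 0.072). *Foxo4*, a factor known to repress myocardin, was lower in both treated groups (log2FC -1.02, SE 0.09, adjusted p = 1.1e-05 with LPS and log2FC -0.69, SE 0.10, adjusted p = 0.00249 with dual treatment). *Klf4* and *Elk1*, which oppose myocardin, were not called with LPS (0.23, adjusted p = 0.145 and 0.28, adjusted p = 0.104, with the edgeR adjusted p in brackets).

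In counts, 0 of the 7 regulators were higher and 2 lower with LPS (also 0 higher by unadjusted edgeR p under 0.05 and by DESeq2), and 0 were higher and 1 lower with dual treatment against control (1 and 0 higher by the same 2 measures). Against LPS, *Mrtfa* (0.68, adjusted p = 0.00257), *Mrtfb* (0.67, adjusted p = 0.00268) and *Foxo4* (0.33, adjusted p = 0.0179) were higher and *Elk1* (-0.63, adjusted p = 0.0074) was lower with dual treatment, with edgeR adjusted p in brackets. The medians were 0.04, -0.35 and -0.23 in the order of the comparisons, and the first and last change sign with library size alone, to -0.23 and 0.10, as the median of all genes moves to -0.29 and 0.38. Without LPS mice 6 and 7, dual treatment against LPS was at log2FC 0.36 for *Foxo4*, -0.56 for *Srf* and -0.46 for *Klf4*. With LPS, *Srf* was then at 0.50 and *Klf4* at 0.46. The first and last medians were -0.27 and 0.16 in that fit, of other sign than in the main fit, while the medians of all genes were -0.08 and 0.13. The lower level of *Elk1* was not called with library size alone (-0.30).

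Since *Acta2* is a classic target of the CArG box, its promoter is shown. Of the 8 genes, 5 were found in the RefSeq table of promoters (GRCm38.p6): *Acta2*, *Cnn1*, *Des*, *Pdgfra* and *Cspg4*. The CArG box was searched on both strands in the 250 bases before the start of the gene. A strict form, with 6 bases of A or T between its ends, is held by 1.47% of the 32851 promoters, and a relaxed form, which lets at most 1 of these 6 be G or C, by 8.59%. *Acta2* had no strict box and 2 relaxed ones, and *Cnn1*, *Des*, *Pdgfra* and *Cspg4* had neither form in this window. The *Acta2* window is chr19:34255374-34255623 on the minus strand of GRCm38.p6, given 5′ to 3′ with the boxes in capitals; their first bases lie at -84 and -34 from the start.
Acta2: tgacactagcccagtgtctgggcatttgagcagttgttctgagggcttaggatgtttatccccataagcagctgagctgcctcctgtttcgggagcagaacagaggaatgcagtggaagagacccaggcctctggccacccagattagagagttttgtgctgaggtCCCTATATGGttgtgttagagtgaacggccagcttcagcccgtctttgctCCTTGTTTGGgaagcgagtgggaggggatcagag
A match of letters is a description of the sequence, and binding was not measured.

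Most other pericyte genes fell with LPS, as *Pdgfrb* and *Cspg4* did. All 14 listed were tested, and 0 were higher and 12 lower in edgeR, with a median log2FC of -1.55 against -0.01 for all tested genes; 1 was higher at an unadjusted edgeR p under 0.05 and 1 by DESeq2. *Higd1b*, a mitochondrial gene that marks lung pericytes, was lowest, at 31.6, 25.0 and 26.3 CPM in control, 1.01, 1.04 and 1.56 CPM in LPS and 14.3 and 23.6 CPM in dual treatment (log2FC -4.51, SE 0.26, adjusted p = 1.19e-06 for LPS against control). The LPS mice were far below the others, and the dual-treated mice lay below the control mice. *Postn*, which encodes the matrix protein periostin, had the smallest called fall (log2FC -0.63, SE 0.17, adjusted p = 0.00965), and *Mcam*, an adhesion molecule shared with endothelium and the most abundant gene of the list, was at 338, 321 and 298 CPM, 238, 155 and 171 CPM and 468 and 209 CPM (log2FC -0.76, SE 0.27, adjusted p = 0.0286). The list summed to 1022, 1102 and 1025 CPM in control, 504, 395 and 409.9 CPM in LPS and 855 and 713 CPM in dual treatment. Without LPS mice 6 and 7 the median was the same, beside -0.08 for all tested genes, and *Mcam* was at -0.41 and *Postn* at -0.35.

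With dual treatment 10 of these 14 were higher than with LPS and 1 was lower, with a median of 1.28. *Higd1b* was again the most changed (log2FC 3.97, SE 0.27, adjusted p = 6.97e-06 in edgeR), and *Postn* was the gene that was lower (log2FC -0.73, SE 0.20, adjusted p = 0.0105), though with library size alone its log2FC was -0.40 and not called. Against control, 0 were higher and 4 lower in edgeR, with 0 higher by its unadjusted p under 0.05 and by DESeq2, and a median of -0.50. The called genes ran from *Notch3*, the receptor that keeps mural cells mature (log2FC -0.54, SE 0.13, adjusted p = 0.0251), to *Postn* (log2FC -1.36, SE 0.20, adjusted p = 0.00233). *Postn* was at 147, 186 and 179 CPM in control, 133, 103 and 94.3 CPM in LPS and 54.2 and 78.3 CPM in dual treatment, so it was lowest in the dual-treated mice, where *Pdgfrb* and *Cspg4* were near control.

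The ligands of the PDGF receptors changed as well. *Pdgfb*, made by endothelium for pericytes, was at 128, 131 and 146 CPM in control, 24.9, 19.5 and 14.5 CPM in LPS and 128 and 167 CPM in dual treatment. The LPS mice were far below, and the dual-treated mice lay just below and above the control range. By edgeR there was log2FC -2.79 (SE 0.19, adjusted p = 2.56e-06) with LPS, and log2FC 0.12 (SE 0.20, adjusted p = 0.720) for dual treatment against control. *Pdgfd*, which also signals through PDGF receptor beta, was at 16.6, 17.3 and 19.3, 1.90, 1.79 and 0.893, and 8.76 and 8.78 CPM, with the dual-treated mice between the other groups (log2FC -3.54, SE 0.25, adjusted p = 3.1e-06 with LPS and log2FC -1.01, SE 0.25, adjusted p = 0.0227 with dual treatment against control). Of the ligands of PDGF receptor alpha, *Pdgfa* was lower with LPS at 74.8, 76.2 and 72.9 CPM in control against 35.5, 40.6 and 35.5 CPM (2.01-fold, edgeR adjusted p = 2.4e-05), and in dual treatment it was at 50.2 and 61.3 CPM (log2FC -0.42, SE 0.11, adjusted p = 0.0357, and -0.38 and not called with library size alone). *Pdgfc* moved the other way, at 3.18, 2.49 and 1.52, 7.48, 9.47 and 6.81, and 2.68 and 1.05 CPM (log2FC 1.72, SE 0.37, adjusted p = 0.00241 with LPS). So 1 of the 4 was higher and 3 lower with LPS, 0 were higher and 2 lower with dual treatment against control (0 higher also by unadjusted p and by DESeq2, and 1 lower with library size alone), and 3 were higher and 1 lower with dual treatment against LPS, from *Pdgfb* (2.91) to *Pdgfc* (-2.08).

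Genes of endothelium, the source of PDGF-B, were mostly lower with LPS too. Of 8 marker genes, 0 were higher and 6 lower with LPS in edgeR (0 higher by unadjusted p and by DESeq2), with a median log2FC of -1.88, and 6 were higher and 0 lower with dual treatment against LPS (1 lower by unadjusted p and 1 by DESeq2), with a median of 1.37. Against control 1 was higher, *Pecam1* (0.60, adjusted p = 0.0143), and 2 were lower, down to *Ptprb* (-1.19, adjusted p = 0.0152), with edgeR adjusted p in brackets. The list summed to 3918, 4252 and 4454 CPM in control, 2279, 1882 and 1858 CPM in LPS and 3234 and 3708 CPM in dual treatment, and none of its genes was at 0. *Tek*, the angiopoietin receptor, fell most with LPS (log2FC -3.28, SE 0.24, adjusted p = 3.2e-06), *Emcn* was the least changed of the called genes (log2FC -0.75, SE 0.12, adjusted p = 0.000423), and *Tie1* rose most against LPS (log2FC 2.82, SE 0.20, adjusted p = 7.64e-06). The most abundant gene of the list, the junction gene *Cdh5*, was not called with LPS (log2FC 0.17, SE 0.17, adjusted p = 0.382). In the fit without LPS mice 6 and 7 the log2FC of *Cdh5* with LPS was 0.51. The list medians were then -1.73 with LPS and 1.36 for dual treatment against LPS, beside -0.08 and 0.13 for all tested genes. The part of endothelial cells in the lower PDGF ligand levels was not tested.

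Fibroblast genes, to which *Pdgfra* belongs, were mostly lower too. Of 20 listed, 2 were higher and 13 lower with LPS in edgeR, with a median log2FC of -0.92, and 11 were higher and 3 lower with dual treatment against LPS, with a median of 0.61. Without LPS mice 6 and 7 these medians were -0.92 and 0.52, beside -0.08 and 0.13 for all tested genes. With library size alone they were -1.22 and 0.92, beside -0.29 and 0.38. *Inmt*, a methyltransferase that is abundant in lung fibroblasts, was lowest and the most abundant gene, at 2935, 2958 and 3280 CPM in control, 177, 161 and 145 CPM in LPS and 1247 and 2165 CPM in dual treatment (log2FC -4.24, SE 0.22, adjusted p = 7.83e-07 with LPS). *Lum*, a proteoglycan of collagen fibres, was highest, at 2.50, 4.18 and 4.46, 9.02, 9.12 and 8.37, and 2.41 and 1.01 CPM (log2FC 1.25, SE 0.32, adjusted p = 0.00614 with LPS and log2FC -2.37, SE 0.39, adjusted p = 0.000671 for dual treatment against LPS). Against control, 0 of the 20 were higher and 10 lower with dual treatment in edgeR, where unadjusted p under 0.05 and DESeq2 each gave 1 higher, from *Tbx4* (-0.43, adjusted p = 0.0293) to *Dpt* (-1.54, adjusted p = 0.00026), with edgeR adjusted p in brackets and a median of -0.62. *Tbx4* was not called with library size alone (-0.39), where 1 gene was higher and 7 were lower. The sum of the list was 5084, 5368 and 5557 CPM in control, 2086, 1910 and 1965 CPM in LPS and 3229 and 3845 CPM in dual treatment. *Inmt* made up most of it in control.

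The remaining marker lists describe the rest of the tissue. Of 8 genes of lung epithelium, 2 were higher and 3 lower with LPS, from *Sftpd* (1.02, adjusted p = 0.000404) to *Sftpc* (-0.93, adjusted p = 0.0266), both of them surfactant proteins, with edgeR adjusted p in brackets; the list summed to 68528, 69751 and 75096 CPM in control, 96875, 78205 and 71950 CPM in LPS and 43432 and 56540 CPM in dual treatment, and its most abundant gene was *Scgb1a1* of club cells. With library size alone 2 were higher and 6 lower with LPS in edgeR. The median with LPS was -0.29 in the main fit. Without LPS mice 6 and 7 it was 0.03, beside -0.08 for all tested genes, and *Sftpc* was at -0.45. Against control, 0 were higher and 1, *Ager* (-0.94, adjusted p = 0.0376), was lower with dual treatment, with 1 higher by unadjusted edgeR p and 1 by DESeq2. This became 1 higher and 1 lower with library size alone. Of 5 mesothelial genes 0 were higher and 4 lower with LPS (0 higher by unadjusted p and DESeq2), from *Wt1* (-0.72, adjusted p = 0.00752) through *Upk1b* (-1.06, adjusted p = 0.000205) and *Upk3b* (-1.07, adjusted p = 0.00441) to *Lrrn4* (-2.23, adjusted p = 2.36e-05), while *Msln*, their most abundant, was not called (0.11, adjusted p = 0.537). Leaving out LPS mice 6 and 7 brought *Wt1* to -0.33 and *Upk3b* to -0.79 with LPS. Against LPS, 3 mesothelial genes were higher and 0 lower with dual treatment in edgeR, from *Lrrn4* (2.32) to *Upk3b* (0.77, and 0.50 without LPS mice 6 and 7). The mesothelial sums were 574, 473 and 508 CPM, 426, 377 and 319 CPM and 405 and 604 CPM. All 10 neutrophil genes were higher with LPS, from *Csf3r* (0.97, adjusted p = 0.00909) to *Ly6g* (5.16, adjusted p = 0.000157), and 5 of 10 with dual treatment against control, from *Csf3r* (2.02) to *S100a8* (4.21). The call of *Csf3r* with LPS was lost without LPS mice 6 and 7, at 0.87. Their sums, with *S100a9* the most abundant gene, were 314, 256 and 179.5 CPM in control, 2498, 3420 and 2343 CPM in LPS and 1822 and 2392 CPM in dual treatment. Between the treated groups the list was mixed, with 3 genes higher and 5 lower in dual treatment than in LPS in edgeR, from *Retnlg* (1.49) to *Mpo* (-4.18), and a median log2FC of -1.38. That median was -1.12 without LPS mice 6 and 7, beside 0.13 for all tested genes. The genes of lung epithelium had counts in every library. Against LPS, 0 of them were higher and 2 lower with dual treatment in edgeR, *Ager* (-0.68) and *Scgb1a1* (-1.28). With library size alone 2 were higher and 1 lower in that comparison, and *Ager* was not called (-0.34).

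Skeletal and squamous genes were called with LPS in 14 of 15 and 10 of 12 tested genes in edgeR, all higher. The called genes ran from *Myl1* up to *Myh1* and from *Dmkn* up to *Krtdap*, and against LPS, dual treatment was lower in genes from *Ttn* down to *Acta1* and from *Sprr1a* down to *Crct1*. Many of these folds stand against levels at or near 0, so they are not given here. Without LPS mice 6 and 7 the counts with LPS were 3 of 12 higher, and 0 of 6 higher with 1 lower. Dual treatment against LPS, with 14 of 15 and 9 of 12 lower and 0 higher in the main fit, then had 1 higher and 3 lower of 12 skeletal genes and 3 higher and 0 lower of 6 squamous genes. *Sprr1a* was among those 3, so its direction depends on LPS mice 6 and 7. Against control, 0 were called with dual treatment in either list by edgeR and by DESeq2, and the unadjusted p under 0.05 gave 1 lower skeletal and 1 higher squamous gene. That comparison had, in the fit without LPS mice 6 and 7, 0 higher and 2 lower of 12 skeletal genes, and 2 higher and 1 lower of 6 squamous genes, in edgeR. Their part in the level of *Des* was not tested beyond the values without these mice given above. *Pdgfrb* and *Cspg4* were lower with LPS also without LPS mice 6 and 7, at log2FC -0.65 (edgeR adjusted p = 0.0265; 2.11e-05 to 0.0265 over 14 alternatives) and -1.17 (edgeR adjusted p = 0.0106; 7.55e-09 to 0.0106 over 14 alternatives).

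For each of the 8 genes, the 3 genes outside the list with the most similar profile were found among the 15613 tested genes with a mean of at least 1 CPM. The measure was the root-mean-square difference of log2 CPM over the 8 mice, after each gene was centred on its own mean, and it is given in brackets. *Cnn1* was nearest to *Myl7* (0.272), *Myl4* (0.284) and *Cdh26* (0.309), and *Myl7* and *Myl4* are light chains of atrial myosin. *Myl7* was at 46.9, 92.1 and 63.2 CPM in control, 94.6, 128 and 68.6 CPM in LPS and 17.6 and 21.4 CPM in dual treatment, lowest in the dual-treated mice as *Cnn1* was. *Acta2* was nearest to *Rfxap* (0.126), *Usp27x* (0.132) and *Mtmr3* (0.134), *Myh11* to *Plcd1* (0.0674), *Nhlrc2* (0.109) and *Me1* (0.114) and *Des* to *Ces2g* (0.128), *Tacc2* (0.181) and *Dsp* (0.200). *Pdgfrb* was nearest to *Tshz2* (0.0826), *Gm6712* (0.0913) and *Gpt2* (0.0983), *Cspg4* to *Srbd1* (0.153), *Nhlrc1* (0.157) and *C330018D20Rik* (0.158) and *Pdgfra* to *Airim* (0.115), *Gm5532* (0.122) and *Adap2* (0.135). *Tagln*, with its small counts, had more distant neighbours in *Gm50431* (0.217), *Arhgap32* (0.239) and *Gm16209* (0.241).

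Among the 8 genes themselves the closest pair was *Myh11* and *Des* at 0.201, followed by *Myh11* and *Pdgfra* at 0.305, while *Cnn1* and *Cspg4* were farthest apart at 1.62. *Pdgfrb* was closer to *Pdgfra* (0.323) than to *Cspg4* (0.562), and *Acta2* was closer to *Myh11* (0.332) than to *Cnn1* (0.739). This measure takes in the size of the changes as well as their direction, so genes that changed little lie close to each other. In the main fit *Pdgfrb* and *Cspg4* were called in the same comparisons and directions, while *Pdgfra* was called in none. The 8 genes thus had several profiles over the mice. *Acta2* was high with LPS, *Cspg4* and *Pdgfrb* were low with LPS, and *Cnn1* was low with dual treatment. With 8 mice in 3 groups, these distances hold differences both between and within groups.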

How the data were processed

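Raw counts per gene were deposited by the authors, 1 file a mouse, from reads trimmed with Trim Galore, mapped to GRCm39 with HISAT2 2.2.1 and counted with featureCounts 2.0.1. CPM was computed here. The annotation release and the strand setting are not given in the sources used here. Symbols and exons came from GENCODE M39. The fits used edgeR 4.0.16 under R 4.3.3 (TMM, filterByExpr by group, quasi-likelihood test of all 8 libraries with a group factor, 5 residual degrees of freedom), after a test on simulated data. A gene was called at a Benjamini-Hochberg adjusted p under 0.05 over 18560 genes. Standard errors came from log2FC and the F statistic. Ratios were tested by exact permutation, after adding 0.5 to each count. Log2 CPM used a prior count of 2.

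The study's methods used DESeq2, which was run as an alternative (1.42.0), as was its criterion of a fold change over 2 at a p under 0.05. That p was taken here as unadjusted, as the study does not say whether it was adjusted. Further alternatives were other scalings and filters, a test against a fold change of 1.5, fits of 2 groups, and leaving out each mouse or LPS mice 6 and 7. The 8 genes and the lists were chosen with earlier results of these data known. Named are the 8 genes, the genes of lists of at most 7, and of each longer list the most abundant gene and the called genes with the highest and lowest log2FC in the comparisons described, plus listed genes without counts and the 3 genes nearest in profile to each of the 8. The exon neighbours *Elof1*, *Pcsk7*, *Gm48529*, *Stambpl1* and *Ube2c* were named for their overlap. *Lor* of the squamous list was not matched by symbol. For the dual-treatment group a figure legend of the study and the labels give 2 mice, which were used, where the methods give 3.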

Additional observations from a re-analysis of the deposited data

How the results depend on the processing

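Of 341 fitted log2FC values of the 8 genes under an alternative setting, 301 stayed on the same side of the threshold, 24 were no longer called and 16 became called. The number of the 8 genes called for LPS against control was 3, and it was 1 with the study criterion and 1 with the test against a fold change of 1.5. For dual treatment against control it was 1; it was 2 with the study criterion, with DESeq2, with DESeq2's size factors and with at least 10 counts in every library (which drops *Tagln*), and 3 without a filter, with only the 2 groups compared and without LPS mice 6 and 7. For dual treatment against LPS it was 6, with 2 higher and 4 lower, and 3 with the study criterion and with the test against a fold change of 1.5. In that comparison 2 were higher and only 2 lower with library size alone, with upper quartile scaling and with only the 2 groups compared. Leaving out each mouse gave 3 to 4 called for LPS against control, 1 for dual treatment against control, and 3 to 7 for dual treatment against LPS, with 3 reached without dual-treated mouse 2. The total of 3 for LPS against control hides a shift from 1 higher and 2 lower to 0 higher and 3 lower, both with library size alone and without LPS mice 6 and 7. Over all tested genes, 2997 were called for dual treatment against control, and 780 with the test against a fold change of 1.5. Leaving out single mice moved that total to 1788, 1553 and 1710 without control mice 1, 2 and 4, and to 1220 and 3225 without dual-treated mice 2 and 5. The cause of these shifts was not tested.

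Outside the 8 genes, sign changes were checked only in short lists and in the most abundant and extreme called genes of longer ones. By alternatives added after seeing the data, 4 called values of these genes, with counts in both groups compared, changed sign without LPS mice 6 and 7. They were *Myl1* (-0.43) and *Myl3* (-0.09) for LPS against control, and *Krt13* (1.24) and *Sprr1a* (1.59) for dual treatment against LPS. Of these 4, only *Sprr1a* was called in the new direction. The LPS mouse that remains had only 5 counts of *Krt13*. It had 0 of *Krtdap*, whose fitted 5.83 stands against a level of 0 and is neither a measured fold nor read as a change of sign. No paired analysis was made, because the study divided the mice into groups at random and describes no pairing. The mouse numbers are labels within a group. The groups hold 2 or 3 mice, and *Tagln* had 8 to 33 counts.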
